A study of Rattus norvegicus with 6 samples.

Results

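Genes of the path from transcription to protein were measured in islets of the rat pancreas: Magoh, Med16, Eif4b, Pop7 and Cse1l. They were taken by name from the array maker's catalogue probes, those for which the array files give an accession that leads to a gene, and make up 5 of the 30 genes that could be named in this way; the array holds 38804 probes other than controls, most of them unnamed here. Islets are the small groups of endocrine cells that secrete insulin and glucagon; they came from male rats, and each perfused pancreas was cut into a head (duodenal) part and a tail (splenic) part that were digested separately, so the comparison asks how islets of the 2 regions differ. There were 3 head and 3 tail samples, numbered 1 to 3, with 1 single-colour (Cy3) array each. No strain, genotype or treatment of the animals before islet isolation is given in the labels, and the sample titles begin with 24W, which the labels do not spell out. Islet cell types could not be checked, because 0 of the 22 marker genes chosen for this have a named probe.

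The 5 proteins act in different processes. Med16 belongs to Mediator, the complex that passes signals from transcription activators to RNA polymerase II. Magoh sits at the heart of the exon junction complex, which splicing leaves on messenger RNA and which guides its export, translation and quality control. Pop7 is a protein subunit of RNase P and RNase MRP, the RNA-protein enzymes that trim transfer RNA precursors and process ribosomal RNA. Cse1l is the exportin that returns importin alpha from the nucleus to the cytoplasm, so that protein import can go on. Eif4b helps the helicase Eif4a unwind the leader of messenger RNA when ribosomes load, and initiation is a step at which glucose is known to control insulin synthesis in beta cells. Of 73 other genes of these complexes (exon junction complex, Mediator, cap-binding initiation, RNase P and MRP, and nuclear transport receptors), 0 have a named probe here, so each gene stands alone for its complex.

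Magoh, Cse1l and Med16 are shown with the sequence before their transcription start, because a sequence was at hand for these 3 of the 5 genes only. The sequences come from RefSeq's promoter table for the rat assembly GRCr8, where 3 of the 5 genes were found and Eif4b and Pop7 were not. The table gives 250 bases before 1 transcript start per gene, and that start lies inside the gene as RefSeq annotates it. The last bases of each stretch (42 for Magoh, 26 for Med16 and 55 for Cse1l) are therefore in the gene and not printed, which leaves 208, 224 and 195 bases that end just before the gene. They lie on the plus strand at chr5:127867836-127868043 for Magoh, chr3:176059988-176060182 for Cse1l and chr7:10449049-10449272 for Med16. Capitals mark matches to 6 motifs, searched on both strands: the cyclic AMP response element TGACGTCA, the octamer ATGCAAAT, the ETS site CCGGAAGT, the TATA box TATAAA, the CCAAT box CCAAT and the GC box GGGCGG. These motifs were chosen after the sequences were seen, and their matches do not overlap.
Magoh: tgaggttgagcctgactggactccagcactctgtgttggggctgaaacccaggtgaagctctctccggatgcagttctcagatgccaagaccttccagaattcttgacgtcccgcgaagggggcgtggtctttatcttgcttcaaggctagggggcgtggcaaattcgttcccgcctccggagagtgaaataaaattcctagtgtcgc
Cse1l: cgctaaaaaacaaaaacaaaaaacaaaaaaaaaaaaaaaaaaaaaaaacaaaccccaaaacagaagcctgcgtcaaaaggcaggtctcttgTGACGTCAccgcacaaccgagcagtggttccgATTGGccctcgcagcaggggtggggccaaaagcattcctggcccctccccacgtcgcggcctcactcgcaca
Med16: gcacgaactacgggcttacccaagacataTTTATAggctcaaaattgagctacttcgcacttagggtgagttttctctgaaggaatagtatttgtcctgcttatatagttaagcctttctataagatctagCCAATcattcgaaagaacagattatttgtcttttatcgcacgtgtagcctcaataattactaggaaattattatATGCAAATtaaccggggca
The stretch before Cse1l held a cyclic AMP response element 104 bases before the annotated start of the gene and a CCAAT box on the other strand 72 bases before it. Before Med16 there were an octamer at 19 bases, a CCAAT box at 93 bases and a TATA box on the other strand at 195 bases. None of the 6 motifs was found in the 250 bases of Magoh. Among all 33469 stretches of 250 bases in the table, 1.59% held the cyclic AMP response element, 1.56% the octamer, 34.0% a CCAAT box, 12.9% a TATA box, 3.1% the ETS site and 30.5% a GC box. G and C made up 56.8% of the 250 bases for Magoh, 52.8% for Cse1l and 40.0% for Med16, where the median over all stretches was 51.2%. These matches describe the letters only.

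The arrays differed among themselves in ways that touch each value below. The signal at the 75th percentile of the probes ran from 114 on tail replicate 2 and 117 on tail replicate 3 to 264 on tail replicate 1, with 203 to 259 on the head arrays. Tail replicate 1 stood apart from the other tail arrays: its correlation over probes with head replicate 1 was 0.975, against 0.934 and 0.931 with tail replicates 2 and 3, which correlated with each other at 0.981. It also correlated more with head replicates 2 and 3 (0.945 and 0.948) than with the tail arrays, so by this measure it went against its label. Head replicate 2 was mixed by the same measure. Its correlation was 0.971 with tail replicate 3 and 0.967 with tail replicate 2, against 0.968 and 0.956 with head replicates 1 and 3. The labels were kept, and the differences without tail replicate 1 are given below. A wrong label would change each head minus tail value. Arrays with the same scan identifier in the file headers were taken to share a slide, which the labels do not name. The 3 tail arrays shared an identifier, head replicates 2 and 3 shared another, and head replicate 1 had its own. No slide read in this way held both regions, so slide and region cannot be told apart. Precision is limited by having 3 arrays per region. The animals are not named in the labels, so p-values measure the spread between these samples, which may be technical. In whole islets, a lower share of cells of a type and less RNA per cell cannot be told apart either.

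Each gene has 1 probe printed in 10 spots per array: A_44_P535706 for Magoh, A_44_P291060 for Med16, A_44_P1033541 for Eif4b, A_43_P16530 for Pop7 and A_44_P1017335 for Cse1l. All spots used were well above background on all 6 arrays, with 10 spots per array except 9 for Cse1l on tail replicate 2. The dimmest gene was Med16, at 4.96 to 9.58 times its local background, and Eif4b reached 109 times on head replicate 3. Signals are given below as log2 relative to the 75th percentile of the array, so that 0 is the level of that percentile and 1 unit is a doubling. The SD over the spots of an array lay between 0.034 and 0.18, which gives a mean over spots an error of at most 0.056. For each gene but Med16 the smallest SDs were those of tail replicates 2 and 3. This error leaves out any noise common to a whole array.

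In transcription, Med16 was the 1 of the 5 genes with a lower mean in head islets. It read -0.85, -0.56 and -0.65 on the tail arrays and -1.2, -0.92 and -1.44 on the head arrays, given here and below in the order of replicates 1 to 3. On this scale every head array was below every tail array. Before scaling the regions overlapped, with signals of 146, 77.7 and 74.4 on tail arrays and 88.0, 109 and 95.5 on head arrays. Each head array was then brighter than tail replicates 2 and 3, so the separation rests on the scaling. The scaled mean of Med16 was -1.19 ± 0.26 (SD, n = 3) in the head and -0.69 ± 0.15 (SD, n = 3) in the tail, a log2 difference of -0.50 (SE 0.26, 95% interval -1.11 to 0.11, limma adjusted p = 0.31). The tail level was thus 1.42-fold the head level. Within the same-numbered pairs the head array was lower by similar amounts in pairs 1 and 2, with differences of -0.35 and -0.37, and by more in pair 3, at -0.79. Med16 did not pass the test. It was the 1 gene of the 5 without overlap; 24.9% of all probes with 6 values had none, 19.8% with the head lower and 5.09% with the head higher.

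For RNA processing, Magoh had the largest difference of the 5. The tail arrays gave 1.04, 0.10 and 0.29, and the head arrays 1.14, 0.76 and 1.58. Tail replicate 1 lay above head replicate 2, so the regions overlapped. The head mean was 1.16 ± 0.41 (SD, n = 3) and the tail mean 0.48 ± 0.49 (SD, n = 3), a head level 1.61-fold the tail level (log2 difference 0.69, SE 0.38, 95% interval -0.19 to 1.56, limma adjusted p = 0.324). The head array was the higher in each pair, by 0.10, 0.66 and 1.29, with an SD over pairs of 0.60. RefSeq lists a close paralog, Magohb, and with no probe sequence in the files its share of the signal was not tested.

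Pop7 was bright on the same arrays as Magoh. Tail arrays read 1.8, 0.78 and 1.05 for it, head arrays 1.69, 1.25 and 2.07. Tail replicate 1 was above head replicates 1 and 2. The average was 1.67 ± 0.41 (SD, n = 3) in the head and 1.21 ± 0.53 (SD, n = 3) in the tail, a 1.37-fold difference (log2 0.46, SE 0.39, 95% interval -0.45 to 1.37, limma adjusted p = 0.482). The pairs did not share a direction: pair 1 differed by -0.11, pair 2 by 0.47 and pair 3 by 1.02.

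In nuclear transport, Cse1l showed the same order of pairs. Its values were 1.58, 0.34 and 0.68 on tail arrays, and 1.48, 0.90 and 1.51 on head arrays. Its highest array was a tail array, replicate 1, and its lowest was tail replicate 2. With means of 1.29 ± 0.34 (SD, n = 3) in the head and 0.87 ± 0.64 (SD, n = 3) in the tail, the difference was 0.42, or 1.34-fold (SE 0.41, 95% interval -0.51 to 1.36, limma adjusted p = 0.526), with pairs at -0.11, 0.55 and 0.82. The tail arrays alone thus spanned the whole range of the gene.

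The translation factor Eif4b followed other arrays. For this gene the tail arrays read 0.62, 1.22 and 2.14, the head arrays 1.43, 1.74 and 2.36. Here tail replicate 1 was the lowest array, where it was among the 3 highest for Magoh, Pop7 and Cse1l. In both regions replicate 3 was the highest. Means of 1.84 ± 0.48 (SD, n = 3) for the head and 1.33 ± 0.77 (SD, n = 3) for the tail made a 1.43-fold difference (log2 0.52, SE 0.46, 95% interval -0.56 to 1.59, limma adjusted p = 0.501). The head array was higher in all 3 pairs, by 0.81, 0.52 and 0.23. Blocking on the replicate number brought the SE from 0.46 to 0.28, with a limma adjusted p of 0.217. RefSeq names 4 pseudogenes of Eif4b, whose part in the signal was not tested.

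**Figure D1:**
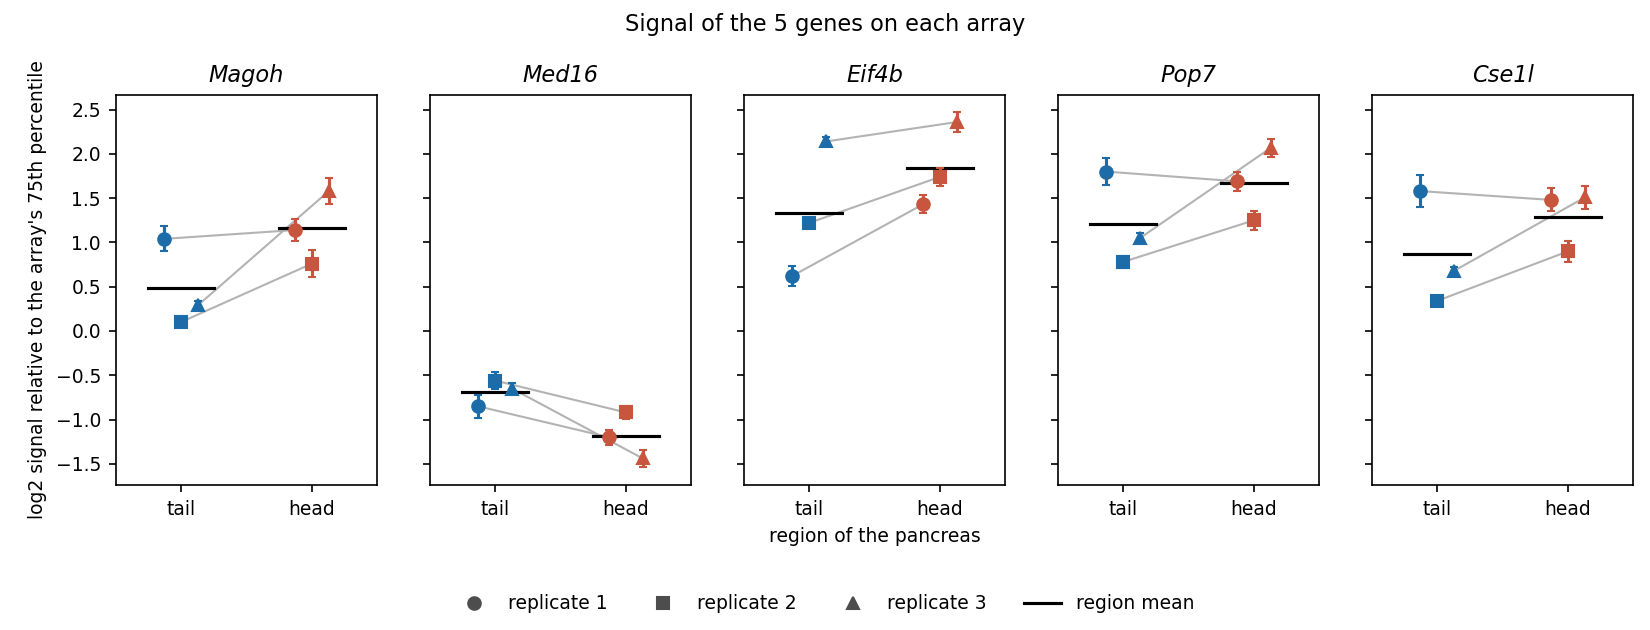
Log2 signal relative to the 75th percentile of the array for the 5 genes, by region of the pancreas. Points are arrays (means over 9 or 10 spots, bars the SD over spots), grey lines join same-numbered arrays and black bars are region means. Med16 is lower on each head array (-1.44 to -0.92) than on each tail array (-0.85 to -0.56), and the regions overlap for the other 4.

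None of the 5 genes passed the limma test at an adjusted p of 0.05, nor did any other probe (0.0% of 32182 tested). At an unadjusted p under 0.05 the count was 0 of 5, where 19.2% of all tested probes met it. The unadjusted p was 0.0938 for Med16, 0.108 for Magoh and 0.276 to 0.328 for the other 3. With the replicate number as a block the count was again 0 of 5, against 33.8% of all tested probes, with 0.0582 for Med16 and 0.0615 for Magoh, and 0.00311% of probes (1 probe) passed the adjusted threshold. The 95% interval included 0 for each gene, and for the 4 genes with a higher mean in the head it reached past a doubling: the upper bounds of the head over tail ratio were 2.94 for Magoh, 3.01 for Eif4b, 2.58 for Pop7 and 2.57 for Cse1l. For Med16 the interval of the head over tail ratio was 0.463 to 1.08.

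Higher mean levels in the head were seen for 4 of the 5, where 38.8% of all tested probes did. The median difference of the 5 was 0.46, against -0.23 over all tested probes, 0.50 over the 44 tested catalogue probes and 0.60 over the other 22 with a gene symbol, of which 18 had a higher mean in the head. The 2 genes whose head array was higher in all 3 pairs were Magoh and Eif4b, as for 17.6% of all probes, and the 1 gene lower in all 3 was Med16, as for 38.1%. Ranked among all tested probes, 10.9% had a higher difference than Magoh, 17.2% than Eif4b, 19.4% than Pop7 and 20.9% than Cse1l, and 67.7% had a higher one than Med16.

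The difference between the regions changed with signal level over all probes. The tested probes were cut into 5 equal classes by mean level. The median difference was -0.57 in the dimmest class and -0.42, -0.31, -0.048 and 0.33 in the classes that follow. Med16 lay in class 3, Magoh and Cse1l in class 4, and Eif4b and Pop7 in the brightest. Eif4b, Pop7 and Cse1l were within the middle 50% of the probes of their class, and so was Med16, where that range was -0.60 to 0.15. Magoh, at 0.69, was above the upper quartile of its class (0.46). Both Med16 and Cse1l lay close to the upper bound of their class, with mean levels of -0.94 against -0.93 and of 1.08 against 1.11. In the class above, the middle 50% was -0.44 to 0.46, which leaves Med16 (-0.50) outside, and -0.12 to 0.65, which still holds Cse1l (0.42). The part of signal level in the differences of these genes was not tested.

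**Figure D2:**
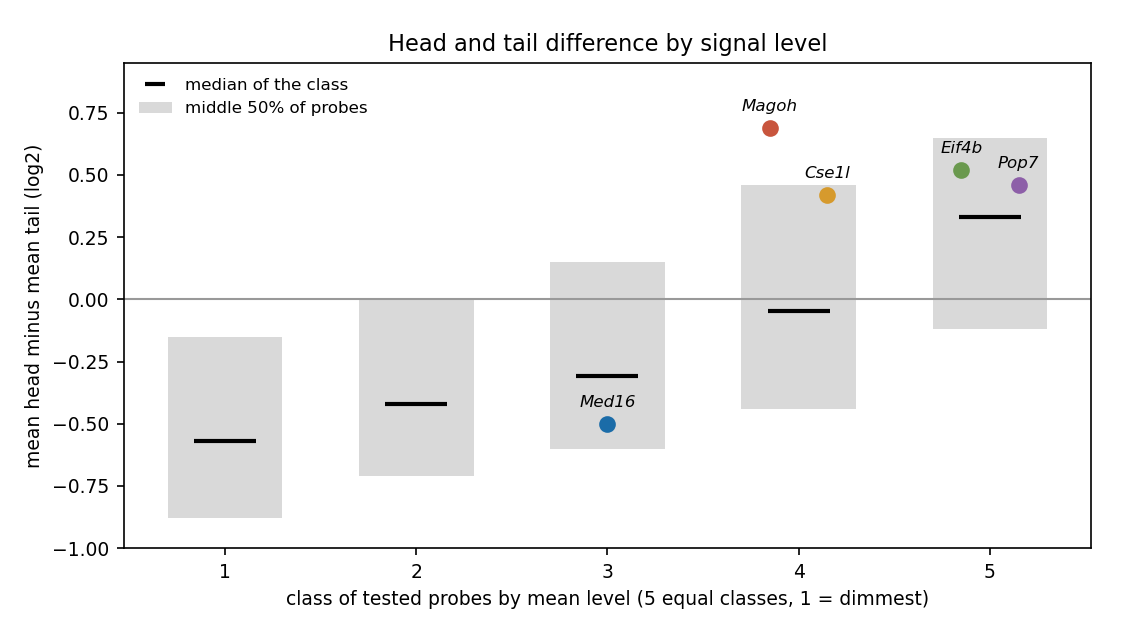
Head minus tail difference (log2) of all probes with 6 values, in 5 equal classes by mean level, with the 5 genes drawn in their class. Grey boxes span the middle 50% of probes and black bars are medians, which run from -0.57 to 0.33. Magoh is above the box of its class, and the other 4 genes are inside theirs, with Med16 and Cse1l close to the upper bound in level of their class.

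The sizes depended on how arrays were brought to one scale. After quantile normalization the median over all probes was -0.059, and the differences were 0.58 for Magoh, 0.29 for Cse1l, 0.25 for Pop7, 0.23 for Eif4b and -0.38 for Med16. In the authors' deposited value table they were 0.60, 0.29, 0.26, 0.24 and -0.38 in the same order. With each array centred on its median, Med16 shrank to -0.24 and Magoh grew to 0.95. Arrays were also centred on the mean of the 41 catalogue probes well above background on all 6 arrays, which include these 5. The median over all probes then moved to -0.63, Pop7 and Cse1l came to 0.054 and 0.018, and Med16 to -0.91. With the replicate block added to that centring, Med16 passed the threshold (limma adjusted p = 0.0482), as 25.3% of all tested probes did, so 1 of the 5 was called; its limma adjusted p ran up to 0.741 over the other settings. Directions did not turn under any of these 6 scalings. Measured from the median of all probes, Magoh was 0.50 to 0.91 above it and Med16 0.20 to 0.33 below it.

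**Figure D3:**
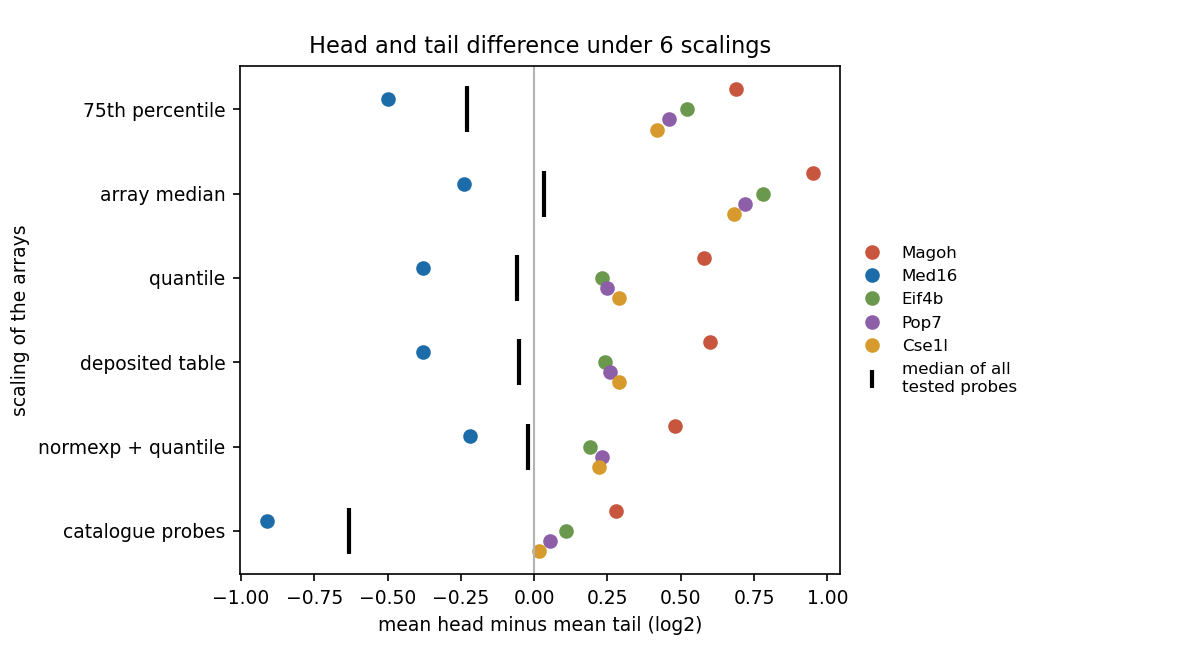
Mean head minus mean tail difference (log2) of each gene under 6 ways of scaling the arrays, with the median of all tested probes as a black bar. Magoh is the rightmost gene in each scaling (0.28 to 0.95) and Med16 the only one below 0 (-0.91 to -0.22).

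Single arrays moved the differences too. Without tail replicate 1, Magoh differed by 0.97, Cse1l by 0.78, Pop7 by 0.76 and Med16 by -0.58, while Eif4b came to 0.16. Leaving out tail replicate 2 brought Cse1l to 0.16, Pop7 to 0.24 and Magoh to 0.50. Eif4b reached 0.92 with tail replicate 3 left out and came to 0.26 without head replicate 3, a case that put Pop7 at 0.26, Magoh at 0.48 and Med16 at -0.38. Without head replicate 2 Cse1l was at 0.62, Pop7 at 0.67 and Med16 at -0.63. Med16 moved least, between -0.63 and -0.38 over the 6 cases.

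Over the 6 arrays the genes fell into a trio that varied together, 1 gene that varied against it and 1 apart from it. Magoh and Pop7 had a Pearson r of 0.98 (Spearman rho 0.94), Pop7 and Cse1l 0.97 (rho 0.94), and Magoh and Cse1l 0.92 (rho 0.83). Med16 ran against Magoh at -0.95 (rho -0.94), against Pop7 at -0.87 (rho -0.83) and against Cse1l at -0.78 (rho -0.66). Eif4b had an r of 0.17 with Magoh, 0.06 with Pop7, -0.12 with Cse1l and -0.39 with Med16, and each of these 4 changed sign under at least 1 of the scalings. Of the 10 pairs, 4 reached an adjusted p of 0.05 by Pearson r in an exact permutation test over 720 pairings (each 0.0278, two-sided, adjusted over the 10 pairs), and 0 did by Spearman rho, where the smallest adjusted p was 0.0556. The 4 are Magoh with Pop7, Cse1l and Med16, and Pop7 with Cse1l. With 5 arrays in place of 6, 6 pairs reached it without tail replicate 1 and 0 without any 1 of the other arrays, although r for Magoh and Pop7 stayed between 0.96 and 0.99. On 5 arrays there are fewer pairings, and a pair alone at the smallest possible p has an adjusted p of 0.0833. Counts on 5 and on 6 arrays are therefore not on 1 footing. The raw exact p-values on 6 arrays were 0.00278, 0.0111, 0.00833 and 0.00556 by Pearson r.

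These p-values treat the 6 arrays as independent, although same-numbered arrays deviated together. Without the 2 arrays farthest from the median (tail replicate 2 and head replicate 3), r was 0.93 for Magoh and Pop7, 0.92 for Magoh and Cse1l, 1.0 for Pop7 and Cse1l and -0.84 for Magoh and Med16. Measured as deviations from the region means, these were 1.0, 0.94, 0.96 and -0.93, so the relation was also seen within regions. After quantile normalization they were 0.93, 0.89, 0.94 and -0.93. Centring on catalogue probes gave 0.85, 0.59, 0.82 and -0.87. With median centring Magoh and Med16 came to -0.79 and lost the call (exact permutation test, adjusted p = 0.142), and with normexp Magoh and Cse1l came to 0.87 and lost it too (adjusted p = 0.0521). Other probes on these arrays reached such values too. The r with Magoh was at least that of Pop7 for 1.66% of all probes and at least that of Cse1l for 7.41%. It was at or below that of Med16 for 6.04%. Taken from the other gene of each pair, these shares were 1.38% for Pop7, 9.04% for Cse1l and 1.36% for Med16. For the pair of Pop7 and Cse1l they were 2.27% and 2.86%. The brightness of the array moved with the trio as well. The log2 of the 75th percentile signal had an r of 0.91 with each of Magoh, Pop7 and Cse1l, -0.76 with Med16 and -0.13 with Eif4b, and the part of brightness in the covariation was not tested.

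**Figure D4:**
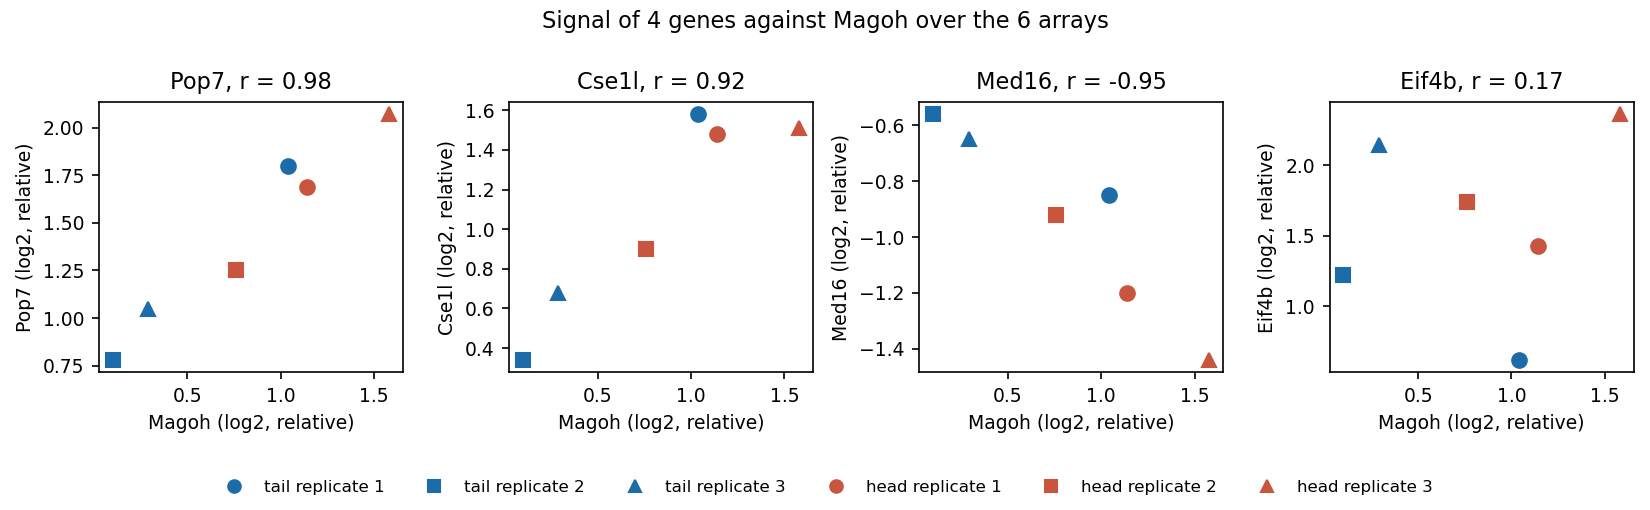
Log2 signal relative to the 75th percentile for Pop7, Cse1l, Med16 and Eif4b against that of Magoh, 1 point per array (colour by region, shape by replicate number). Pop7 and Cse1l rise with Magoh (r 0.98 and 0.92), Med16 runs the other way (-0.95) and Eif4b shows no line (0.17).

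Among the other 22 tested catalogue genes, those closest in pattern were named by the highest r over the 6 arrays. For Magoh they were Odf2l (r 0.98) and Pdcd10 (0.97), for Pop7 the same genes (0.99 and 0.97), and for Cse1l Pdcd10 (0.97) and the uncharacterised LOC108352165 (0.97). Eif4b was closest to Pld1, the phospholipase D1 gene (r 0.90), and to Ldha, the lactate dehydrogenase A gene (0.86). Pld1 and Ldha were, like Eif4b, lowest on tail replicate 1 (-0.89 and -0.96) and highest on head replicate 3 (1.22 and 0.68). Med16 had no near neighbour among these 22 genes, where its highest values were 0.12 with P2rx2 and 0.092 with Dlg4. Of the 22, 18 had a higher mean in the head, and probes without a gene symbol were not searched.

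A ratio of 2 genes on the same array does not depend on a single factor for the whole array, so it shows whether their signals changed unequally. The change of the difference with signal level, described above, is not taken out of such a ratio. It does depend on quantile normalization and background correction, which treat bright and dim probes differently. The log2 ratio of Magoh to Pop7 was -0.77, -0.68 and -0.76 on tail arrays, against -0.55, -0.48 and -0.49 on head arrays. It did not overlap between the regions, although each gene alone did. Its mean of -0.51 ± 0.04 (SD, n = 3) in the head and -0.73 ± 0.05 (SD, n = 3) in the tail gave a difference of 0.23 that came to 0.21, 0.19 and 0.27 in the 3 pairs. Relative to Pop7, Magoh was thus 1.17-fold higher in head islets. The exact permutation p was 0.1, the smallest that 3 arrays against 3 allow, and 0.4 after adjustment over the 10 ratios. This was the 1 ratio of the 10 without overlap, and the count was 6 without tail replicate 1, 4 without head replicate 2, 2 without tail replicate 2, tail replicate 3 or head replicate 1, and 1 without head replicate 3. With an array left out, regions overlap less readily, and the share over all probes was not computed for these cases. The shares that follow are for all 6 arrays. Set against every other tested probe, the ratio did not overlap for 26.1% of them with Magoh, 21.8% with Eif4b, 17.6% with Med16, 15.3% with Pop7 and 13.5% with Cse1l.

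The ratios to Med16 gave the largest differences. Med16 was also the dimmest of the 5. The median difference over all probes was -0.31 in its class of level. It was -0.048 in the class of Magoh and Cse1l and 0.33 in that of Eif4b and Pop7. The part of signal level in these ratios was not tested. Magoh over Med16 stood at 1.89, 0.66 and 0.94 on tail arrays and at 2.34, 1.69 and 3.02 on head arrays. Head replicate 2 lay below tail replicate 1, so the regions overlapped, while the head array was the higher in each pair, by 0.45, 1.03 and 2.08. The mean difference was 1.19, or 2.28-fold (exact permutation p = 0.2). With normexp it was 0.70, and with 1 array left out it lay between 0.85 and 1.55. The ratio of Med16 to Eif4b was lower in the head by nearly the same amount in each pair, at -1.16, -0.88 and -1.01, although the arrays ranged from -2.79 to -1.47 in tail islets and from -3.80 to -2.63 in head islets. Its mean difference was -1.02, or 2.03-fold (exact permutation p = 0.3, adjusted 0.5). Against Pop7 and Cse1l, the ratio of Med16 differed by -0.96 and -0.92 log2 units, again in all 3 pairs. These sizes rest on the processing: Med16 to Eif4b came to -0.61 after quantile normalization, -0.62 in the authors' deposited table and -0.41 with normexp, where Med16 to Pop7 was -0.45 and Med16 to Cse1l -0.44. With 1 array left out, Med16 to Eif4b ranged from -1.41 to -0.63, and the direction of these ratios was the same in each case. Pop7 and Cse1l hardly differed in ratio between the regions, at 0.036, with pairs between -0.085 and 0.20.

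**Figure D5:**
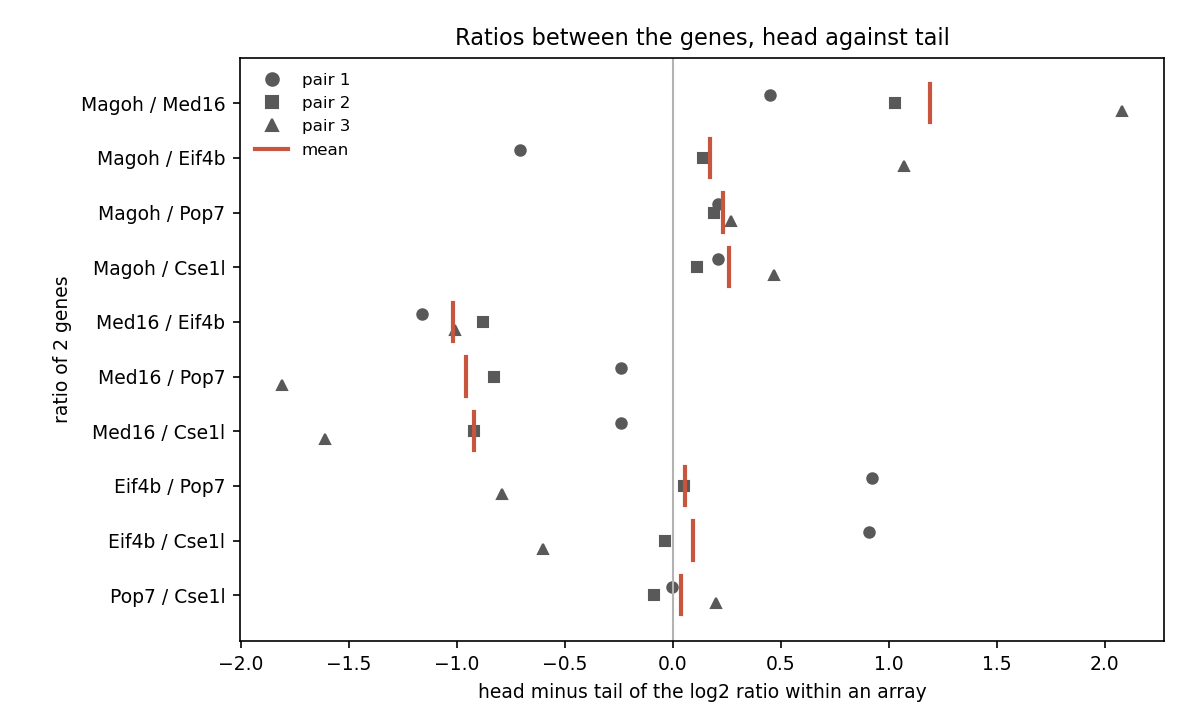
Head minus tail difference of the log2 ratio of each pair of genes within an array. Symbols are the 3 same-numbered pairs and red bars their mean. The Magoh to Pop7 ratio has the tightest pairs (0.19 to 0.27), and the ratios with Med16 lie farthest from 0.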

How the data were processed

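Per the labels' protocols, ribosomal and transfer RNA were removed before random-primed amplification and Cy3 labelling. Each deposited array file is the output of Agilent Feature Extraction 11.0.1.1 with 43217 spots, and its processed signal, a linear intensity, was used; the file headers give spatial detrending statistics. The authors' deposited value table holds log2 values with a median of 5.04 in each of the 6 columns; its direction and scale are those of the scanner values (r 0.997 to 0.999 with its own array over tested probes), and how its columns were brought to this median is not stated in the labels. Control spots and 130 to 177 outlier spots per array were left out, and log2 values of a probe's spots were averaged and set relative to the array's 75th percentile. A probe was tested if more than 0.5 of its spots were well above background on at least 3 arrays and it had at least 2 values per region (32182 of 38804 probes).

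The difference head minus tail came from limma 3.58.1 (R 4.3.3, variance trend, two-sided, Benjamini-Hochberg over all tested probes, threshold 0.05). The fit was checked on simulated data with noise drawn independently for each probe and array. That check leaves out deviations that probes share on an array. Catalogue accessions without versions were matched to RefSeq symbols for 30 of 50 probes (assembly GRCr8). The array design names another rat build, so gene coordinates are given only with the RefSeq sequences. The members and gene lists were chosen with earlier results of these data known. Genes outside the 5 were named if they had 1 of the 2 highest r with a member among the named tested probes. Same-numbered arrays are described as pairs, since each pancreas was cut into both parts. They also deviated together (r 0.513, 0.747 and 0.287 over probes). Only 6 pairings exist, and tail replicate 3 reached 0.222 with head replicate 2. The main limma fit and the exact permutation tests left this pairing out. It entered only the alternative fits with the replicate number as a block. Normexp used the median spot signal, because the files hold no mean signal. Alternatives were quantile normalization, median and catalogue centring, normexp, the deposited table, 2 filters, the median over spots, the replicate block, slide as a random block, and each array left out.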

Additional observations from a re-analysis of the deposited data

How the results depend on the processing

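The 5 differences kept their direction and stayed above an adjusted p of 0.05 in limma under all 16 alternatives planned, with 1 exception among 2 added after seeing the data: with the replicate block and centring on catalogue probes together, Med16 differed by -0.91 (limma adjusted p = 0.0482), in a fit that called 8132 probes (25.3%). The replicate block alone changed no call of the 5. Over all probes, 0 passed the adjusted threshold, against 1 with the replicate block, 1 with the replicate block and quantile normalization, 2 in the authors' deposited table, 6086 with slide as a random block (within-slide correlation -0.32) and 0 to 3 with 1 array left out (3 without tail replicate 3). Counts with slide as a random block are not read, because no slide held both regions.

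With 1 array left out, the count of correlated pairs of genes ranged from 0 to 6, against 4 on all arrays (6 without tail replicate 1 and 0 without each of the others), and the count of ratios without overlap from 1 to 6, against 1. Having fewer arrays changes both counts by itself: the smallest p of the exact test rises, and smaller regions overlap less readily. The part of any single array was not tested. The r of Eif4b with Magoh was -0.077 after quantile normalization, -0.056 with normexp and -0.071 in the deposited table, and -0.4 to 0.47 with 1 array left out. Its r with Pop7 was -0.076, -0.1 and -0.065 in the same order, and -0.5 to 0.52. Its r with Cse1l was 0.13 with median centring and -0.49 to 0.4 with 1 array left out, and its r with Med16 was 0.26 with catalogue centring and -0.69 to 0.1 with 1 array left out. The difference of the Eif4b to Pop7 ratio was -0.02 after quantile normalization, -0.044 with normexp and -0.018 in the deposited table, and -0.59 to 0.55 with 1 array left out. That of Eif4b to Cse1l was -0.054, -0.03 and -0.05, and -0.62 to 0.59. The Pop7 to Cse1l ratio gave -0.033 after quantile normalization, -0.032 in the deposited table and -0.056 to 0.12, and the Magoh to Eif4b ratio -0.33 to 0.8. These lie near 0 on all arrays, and their direction is not read. An unadjusted p under 0.05 held for 6168 probes, against 3777 after quantile normalization, 3757 with normexp, 3734 in the deposited table, 10875 with the replicate block, 14834 with the block and catalogue centring, 13406 with slide as a random block, and 2231 (without tail replicate 2) to 13694 (without tail replicate 1) with 1 array left out.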
